A study of Mus musculus with 15 samples.

Results

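IL6Myc-3 and IL6Myc-5 are 2 mouse myeloma cell lines, and the differences between them were read from 6 RNA sequencing libraries, 3 per line, out of 15 libraries of 5 lines in all. The pair was chosen by measured values, as the closest of the 10 pairs of lines. Its mean Euclidean distance over log2(CPM + 1) of the 11773 genes tested was 61.6 ± 0.529 (SD over 9 library pairs), against 67.1 to 97.7 for the other 9 pairs and 21.1 to 26.1 between libraries of the same line. CPM are counts scaled to a common library size. Because the pair was chosen for this distance, the distance and the total number of differing genes are a description. Both lines, like IL6Myc-1, IL6Myc-2 and IL6Myc-4, carry the genotype label IL6Myc and were derived from mice of that name, a model of myeloma. The labels give no treatment, age or passage. The 3 libraries of a line are technical replicates of a single line, so the p-values below measure technical spread only, and a difference between the lines cannot be assigned to a genotype or a treatment. No untransformed plasma cells were among the 15 libraries.

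Multiple myeloma is a cancer of plasma cells, the antibody-secreting end stage of the B cell lineage. Plasma cells live on the cytokine IL-6, which signals through the receptor chain gp130 and the transcription factor STAT3, and on MCL1, a member of the BCL2 family that holds the mitochondrial death pathway in check. MYC drives growth and glucose use in many of these tumours. In patients, gain of the long arm of chromosome 1, where human MCL1 lies, is a frequent event in myeloma.

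The 6 libraries held 19068543 to 28957852 estimated counts, and the ribosomal transcript Rn18s took 0.132% to 0.448% of them. Both lines carried plasma cell transcripts at high level. Xbp1, a driver of the secretory programme, was at 1710.0 ± 35.2 CPM (mean ± SD, n = 3 technical replicates, as throughout) in IL6Myc-3 and 1755 ± 84.8 CPM in IL6Myc-5. Prdm1, the plasma cell transcription factor BLIMP1, was at 172 ± 2.30 and 181 ± 6.92 CPM. Of the 18 myeloid and 18 T and NK cell markers, S100a8, S100a9, Gzmb, Ncr1 and Klrb1c were at 0 counts in both lines, and Lyz2 did not exceed 0.0244 CPM. Other markers of these lists were expressed: C1qb was at 71.1 ± 1.92 and 113 ± 6.20 CPM, Cd68 at 62.2 ± 2.30 and 75.4 ± 2.64 CPM and Klrk1 at 10.3 and 2.31 CPM. The same V segments led in both lines: Ighv11-2 held 87.3% to 94.8% of the heavy chain V counts and Igkv4-68 held 99.8% to 99.9% of the kappa V counts, as the first segments did in the 3 other lines too. The heavy chain figure rests on 230 to 356 counts per library. Igha, the IgA constant gene, had 2104970 counts over the libraries of IL6Myc-3 and 2125183 over those of IL6Myc-5. The heavy chain V counts were thus very few beside the constant gene, and whether the lines share a rearrangement was not tested.

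Although closest of the 10 pairs, the lines differed in 1161 of the 11773 genes tested (9.86%). A gene was called when the Benjamini-Hochberg adjusted p of edgeR's quasi-likelihood test was under 0.05 and the log2 difference was at least 1, that is a 2-fold difference. IL6Myc-5 was higher for 604 genes (5.13%) and IL6Myc-3 for 557 (4.73%), and the median log2 difference of all genes tested, IL6Myc-5 minus IL6Myc-3, was -0.0012. At any size, 6511 genes had an adjusted p under 0.05. The 3 libraries of each line did not overlap in 1140 of the 1161 called genes, and in 60.0% of all genes tested. Many called genes were low: 319 stayed under 2 CPM in the higher line, and among the 8522 genes with at least 10 CPM in either line 235 were higher in IL6Myc-5 (2.76%) and 159 in IL6Myc-3 (1.87%). Set against the 9 libraries of the other lines, IL6Myc-5 alone lay outside their range for 267 called genes and IL6Myc-3 alone for 218. For 50 the lines lay outside on opposite sides, for 28 on the same side, and for 598 neither was outside. Neither line alone was the source of the differences, and for about as many genes as lay outside, both lines fell within what the other lines spanned.

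**Figure D1:**
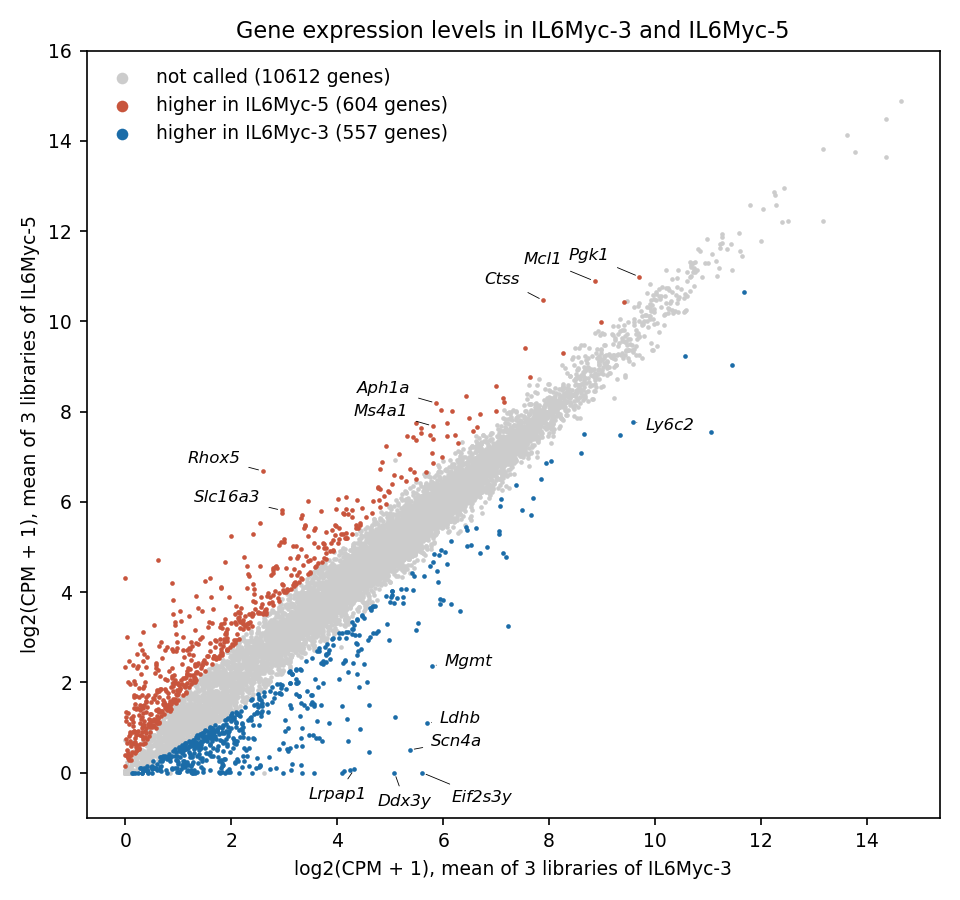
Mean level of each of the 11773 tested genes in IL6Myc-3 (x axis) and IL6Myc-5 (y axis), both as log2(CPM + 1) over 3 libraries. Each point is a gene: 604 were called higher in IL6Myc-5 (red), 557 higher in IL6Myc-3 (blue) and 10612 were not called (grey). Mcl1, Ctss and Pgk1 are red points among highly expressed genes, and Eif2s3y and Ddx3y lie on the lower edge with 0 counts in IL6Myc-5.

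The longest runs of called neighbours lay on chromosome 3. There, a stretch of 44 neighbouring tested genes around Mcl1 was higher in IL6Myc-5: 36 were called higher (background 5.13%), 0 were called higher in IL6Myc-3, and 43 had a difference above 0 (49.7% of all genes tested did). Their median log2 difference was 1.67, or 3.18-fold. The bounds of the stretch were set by the called genes, so these figures are a description. Called genes formed 2 unbroken runs. The first held 10 genes, from Selenbp1 to Lysmd1, with a median log2 difference of 1.53. The second held 25 genes, from Arnt to H2bc21, with a median of 2.04, or 4.11-fold, and a range of 1.01 to 4.80. Between the runs lay 9 genes with a median of 0.50, of which Prune1 was called (log2 difference 1.09 ± 0.07 SE, edgeR adjusted p = 3.80e-09).

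Of the 44 genes of the stretch, 34 were called higher in IL6Myc-5 with its libraries above all 12 other libraries. Over all genes tested, 203 were (1.72%), out of 604 called higher in IL6Myc-5. Relative to the mean of IL6Myc-1, IL6Myc-2 and IL6Myc-4 on the log2(CPM + 1) scale, the stretch had a median of 1.38 in IL6Myc-5 and of -0.09 in IL6Myc-3. At the median, the separation of the pair thus came from IL6Myc-5. IL6Myc-3 lay below the 9 libraries of these other lines for 8 genes of the stretch and above them for 2. The called genes set its bounds, so fewer calls beyond them were built in. The 20 tested genes before it had a median log2 difference of 0.56 with 4 called higher and 1 called lower. The 20 after it had a median of -0.30 with 0 called higher and 2 called lower. Close to the left bound, Selenbp2 (3.75) and Tuft1 (1.45) were called higher and Tdrkh (-5.42) was called lower. None of them exceeded a mean of 2.66 CPM in any line. Just past the right bound, H2ac19 (0.78) and H2ac18 (0.55) had differences above 0 without a call. The next tested gene, H3c14 (-8.18), was called lower, with a mean of at most 1.42 CPM in any line. The stretch made up 29 of the 235 genes called higher in IL6Myc-5 at 10 CPM or more. Gene order came from the GRCm38.p6 assembly by name, and DNA copy number was not measured. Leaving out any of the 6 libraries left 33 to 36 of these genes called.

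Mcl1 was the BCL2 family member with the largest difference. Its level was 458, 484 and 445 CPM in the 3 libraries of IL6Myc-3 and 1843, 1947 and 1919 CPM in those of IL6Myc-5. The ranges did not meet, and the other 3 lines lay at 535 to 645 CPM. The log2 difference was 2.04 ± 0.04 SE (edgeR adjusted p = 2.37e-15), 4.12-fold, and IL6Myc-5 was 2.95-fold above the highest other line. Ctss encodes cathepsin S, a lysosomal protease that trims the invariant chain in antigen presentation. It was at 243, 236 and 226 CPM in IL6Myc-3 and 1310.4, 1471 and 1464 CPM in IL6Myc-5, with no overlap, while the remaining lines spanned 311 to 576 CPM (log2 difference 2.59 ± 0.05 SE, adjusted p = 2.25e-16).

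The same stretch carries genes of unrelated function. Anp32e, a histone chaperone that removes H2A.Z, was at 185 ± 6.76 CPM in IL6Myc-3 and 679.6 ± 25.7 CPM in IL6Myc-5. Aph1a, a subunit of the gamma-secretase complex, which cleaves Notch receptors, was at 57.2 ± 3.61 and 291 ± 16.1 CPM. Tars2, the mitochondrial threonyl-tRNA synthetase, was at 61.2 ± 2.15 and 262 ± 12.5 CPM. These 3 genes were called, with log2 differences of 1.88, 2.35 and 2.10. Splicing factors lay there too: Sf3b4, of the U2 particle, was at 70.98 ± 0.603 and 257 ± 26.8 CPM, and Prpf3, of the U4/U6 particle, at 41.9 ± 1.51 and 173 ± 15.3 CPM. Arnt, the partner that HIF-1 alpha needs to bind DNA, was at 52.2, 55.97 and 50.8 CPM in IL6Myc-3 and 177, 186 and 168 CPM in IL6Myc-5 (log2 difference 1.74 ± 0.05 SE, adjusted p = 3.77e-14). Psmd4, a ubiquitin receptor of the proteasome, was at 139 ± 3.59 and 313 ± 19.2 CPM, and Rfx5, a factor of class II promoters, at 20.4 ± 1.45 and 45.4 ± 0.414 CPM. In each of these genes IL6Myc-5 lay above the 4 other lines.

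The largest log2 differences of the stretch, those of Car14 and Ciart, belonged to genes of lower level. Ecm1 (2.76) and the highly expressed Ctss (2.59) followed. Ciart, a repressor of the circadian clock, was at 5.17, 4.45 and 4.77 CPM in IL6Myc-3 and 49.3, 45.2 and 42.5 CPM in IL6Myc-5 (log2 difference 3.25 ± 0.11 SE, adjusted p = 4.59e-13). Car14, a carbonic anhydrase, had the largest log2 difference, 4.80 ± 0.38 SE, at 0.169 ± 0.192 and 5.15 ± 0.229 CPM. IL6Myc-3 had 15 counts of it and lay below the 3 other lines, which were at 0.915 to 3.04 CPM. IL6Myc-5 was 1.70-fold above the highest of them. Selenbp1 was at 7.01 ± 0.274 and 35.5 ± 1.80 CPM, although it has a close copy nearby, Selenbp2. That copy was also called higher in IL6Myc-5 (3.75), with a mean of at most 2.66 CPM in any line, and Pogz and Psmb4 lie between them. At the lower end, Adamtsl4 (1.04), Sv2a (1.01) and H2bc21 (1.05), a histone gene with many close copies, had log2 differences at the size threshold. Each of these 3 lost its call when at least 1 library was left out: Adamtsl4 without IL6Myc-3 replicate 2 (0.82) or 3 (0.90) or IL6Myc-5 replicate 1 (0.97) or 2 (0.91), Sv2a without IL6Myc-5 replicate 2 (0.57) or IL6Myc-3 replicate 1 (0.98), and H2bc21 without IL6Myc-3 replicate 3 (0.92). Under total-count scaling they were at 0.94, 0.91 and 0.95.

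**Figure D2:**
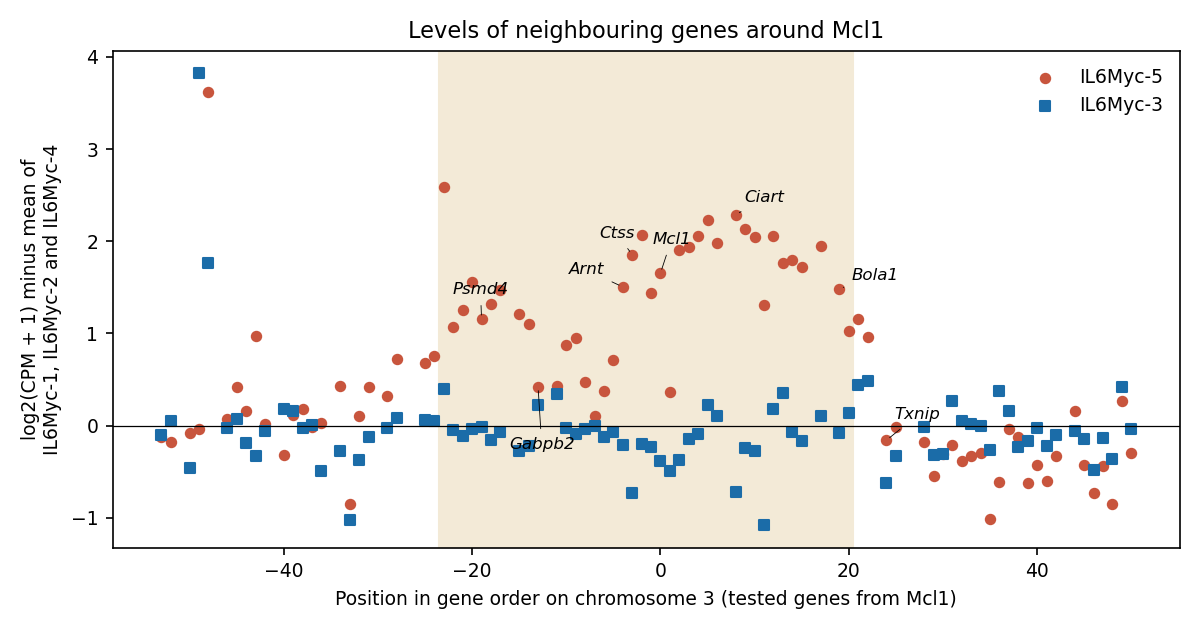
Level of neighbouring genes on chromosome 3 in IL6Myc-5 (circles) and IL6Myc-3 (squares), as mean log2(CPM + 1) minus the mean of IL6Myc-1, IL6Myc-2 and IL6Myc-4 (y axis), against position in the order of tested genes counted from Mcl1 (x axis). Genes with at least 5 CPM in a line are drawn and the shaded band marks the stretch of 44 tested genes. The circles rise above the squares within the band and fall back at the genes between the runs. Beyond the right edge of the band they stay above 0 at H2ac19 and H2ac18 and then lie around or below 0.

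Of 24 tested genes of glycolysis and lactate handling, 4 were called higher in IL6Myc-5 and 1 higher in IL6Myc-3. Over all genes tested the shares were 5.13% and 4.73%. The median log2 difference was 0.69, against -0.0012 for all genes, and 20 of the 24 differences were above 0. At any size, 17 members were higher in IL6Myc-5 and 3 higher in IL6Myc-3 at an adjusted p under 0.05 (28.5% and 26.8% of all genes tested). Pgk1, phosphoglycerate kinase, was at 809.6, 825 and 861 CPM in IL6Myc-3 and 1995, 1953 and 2149 CPM in IL6Myc-5. These were the lowest and the highest values among the 5 lines, the others lying at 1116 to 1273 CPM (log2 difference 1.29 ± 0.04 SE, adjusted p = 1.11e-13). Gapdh, the next enzyme upstream, was at 679 ± 28.6 and 1389.7 ± 44.4 CPM, also the lowest and highest of the 5 lines, with a log2 difference of 1.03 at the size threshold. Gapdh fell short of it under total-count scaling (0.93) and without IL6Myc-3 replicate 3 (0.9997). Both genes have processed pseudogenes whose reads may be shared.

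Slc16a3, the lactate exporter MCT4, showed the largest difference upward. Its libraries were at 6.60, 7.01 and 6.59 CPM in IL6Myc-3 and 61.5, 60.2 and 44.1 CPM in IL6Myc-5 (log2 difference 3.03 ± 0.13 SE, adjusted p = 7.91e-11). IL6Myc-2 was also high at 63.2 CPM, while IL6Myc-1 and IL6Myc-4 were at 0.0255 and 0 CPM, so this gene split the whole panel. Aldoc, an aldolase, was at 26.7 ± 0.776 and 65.4 ± 1.52 CPM. Other members had differences above 0 that missed the size threshold. The enolase gene Eno1 was at 387 ± 9.38 and 709.9 ± 23.7 CPM, Tpi1, triosephosphate isomerase, at 481 ± 9.14 and 889 ± 56.1 CPM and Slc2a1, the glucose transporter GLUT1, at 51.5 ± 2.66 and 93.9 ± 2.29 CPM. The member called higher in IL6Myc-3 was Ldhb, the lactate dehydrogenase subunit that favours conversion of lactate to pyruvate. It was at 49.9, 51.9 and 51.3 CPM in IL6Myc-3 and 0.994, 1.54 and 0.91 CPM in IL6Myc-5, 44.5-fold higher in IL6Myc-3 (log2 difference -5.51 ± 0.23 SE, adjusted p = 5.99e-12). Its partner Ldha was at 816 ± 25.3 and 1291 ± 50.1 CPM. Ldhb in IL6Myc-3 was also 12.1-fold above the highest of the other lines.

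Genes that respond to low oxygen or handle iron were mixed. Of 21 tested, 5 were called higher in IL6Myc-5 and 2 higher in IL6Myc-3, with a median log2 difference of 0.11. The shares over all genes tested were 5.13% and 4.73%. Bnip3, a mitophagy receptor of the BCL2 family, was at 55.3, 57.9 and 52.1 CPM in IL6Myc-3 and 162, 172 and 167 CPM in IL6Myc-5 (log2 difference 1.60 ± 0.04 SE, adjusted p = 4.79e-14). IL6Myc-1 was higher than both at 229 CPM. Ankrd37 was at 9.68 ± 1.47 and 26.96 ± 3.29 CPM, Hmox1, which degrades haem, at 7.78 ± 0.305 and 19.7 ± 1.93 CPM, and Fth1, the ferritin heavy chain, at 502 ± 4.28 and 1012 ± 36.1 CPM (not called without IL6Myc-5 replicate 1, at 0.987). Vegfa, the angiogenic growth factor, was at 93.00 ± 3.94 and 188 ± 7.35 CPM, and its log2 difference of 1.02 fell under the threshold with total counts (0.92) or without IL6Myc-5 replicate 1 (0.988), IL6Myc-3 replicate 1 (0.9993) or IL6Myc-3 replicate 2 (0.995). Egln3, an oxygen-sensing prolyl hydroxylase that is itself induced by hypoxia, ran the other way at 10.6 ± 0.627 CPM in IL6Myc-3 and 0.793 ± 0.273 CPM in IL6Myc-5. Steap3, an iron reductase, was the second, at 0.836 ± 0.136 and 0.0688 ± 0.0394 CPM. Hif1a itself was at 34.9 ± 1.40 and 33.4 ± 3.07 CPM. Under total counts, and without IL6Myc-5 replicate 1, 3 members were called higher in IL6Myc-5.

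The promoters of 4 of these genes are shown because the genes were called higher in IL6Myc-5 together and each holds the core of the element that HIF-1 binds. The sequences are the 250 bases before the gene start from RefSeq, on the GRCm38.p6 assembly, 5′ to 3′ along the gene, with ACGTG or its reverse complement CACGT in capitals. Pgk1 lies at chrX:106186850-106187099 on the plus strand, Slc16a3 at chr11:120948817-120949066 on the plus strand, Bnip3 at chr7:138909507-138909756 on the minus strand and Ankrd37 at chr8:45999851-46000100 on the minus strand.
Pgk1: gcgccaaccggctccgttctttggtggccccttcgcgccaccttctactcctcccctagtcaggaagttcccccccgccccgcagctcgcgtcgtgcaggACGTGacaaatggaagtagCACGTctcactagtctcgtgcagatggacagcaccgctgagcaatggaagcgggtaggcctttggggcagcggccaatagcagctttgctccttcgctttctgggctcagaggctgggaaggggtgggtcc
Slc16a3: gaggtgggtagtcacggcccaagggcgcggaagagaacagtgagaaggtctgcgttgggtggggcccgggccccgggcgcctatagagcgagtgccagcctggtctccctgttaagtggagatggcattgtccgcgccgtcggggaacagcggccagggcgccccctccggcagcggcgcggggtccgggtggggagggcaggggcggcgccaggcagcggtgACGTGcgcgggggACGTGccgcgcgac
Bnip3: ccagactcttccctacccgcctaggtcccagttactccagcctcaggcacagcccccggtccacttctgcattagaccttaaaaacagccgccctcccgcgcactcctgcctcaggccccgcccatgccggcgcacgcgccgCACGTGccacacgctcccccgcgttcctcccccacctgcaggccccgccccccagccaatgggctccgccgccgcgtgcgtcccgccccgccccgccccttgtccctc
Ankrd37: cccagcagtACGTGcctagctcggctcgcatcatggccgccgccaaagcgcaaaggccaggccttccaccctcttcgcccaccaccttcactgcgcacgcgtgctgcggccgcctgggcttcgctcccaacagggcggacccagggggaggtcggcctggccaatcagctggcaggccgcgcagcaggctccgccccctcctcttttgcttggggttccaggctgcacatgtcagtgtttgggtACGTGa
Each holds 2 matches, and in Bnip3 they overlap as the palindrome CACGTG, which is also the E-box that MYC binds. Counting both strands and any annotated start, 5 of the 8 members of these lists called higher in IL6Myc-5 that the promoter table holds had a match (62.5%). So did 22 of 39 tested members (56.4%), 25.6% of 9329 tested genes and 18.5% of 27025 genes in the table. The 4 promoters shown were picked for their matches. Aldoc, Gapdh and Fth1, called in the same direction, had 0 matches before any listed start. Vegfa had 1 match before a start further along the gene and 0 before its upstream start. A match describes the letters only, and the binding of a factor was not measured.

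Of 17 tested members of the IL-6, JAK and STAT3 signalling list 1 was called, where 9.86% of all genes were. At any size, 9 were higher in IL6Myc-5 and 3 higher in IL6Myc-3 at an adjusted p under 0.05 (28.5% and 26.8% of all genes tested). Il6 had 0 counts in both lines, which allows up to 0.0364 CPM in IL6Myc-3 and 0.0426 CPM in IL6Myc-5. These figures concern the mouse gene as annotated, and an IL6 transcript from any other sequence was not looked for. Stat3 was at 138 ± 6.24 and 148 ± 7.43 CPM, and Il6st, which encodes gp130, at 121 ± 3.14 and 108 ± 10.4 CPM. The called member was Pim1, a serine/threonine kinase that promotes survival, at 192, 205 and 198 CPM in IL6Myc-3 and 435, 436 and 429.5 CPM in IL6Myc-5 (log2 difference 1.13 ± 0.04 SE, adjusted p = 2.63e-12). IL6Myc-3 had the lowest Pim1 of the 5 lines. Socs3, the feedback inhibitor of gp130, was at 8.22 ± 0.504 and 16.3 ± 1.56 CPM and its log2 difference of 0.99 just missed the size threshold, though it was called without IL6Myc-3 replicate 1 (1.01) or 3 (1.02) or IL6Myc-5 replicate 3 (1.06). Myc was at 1028 ± 42.9 and 1413 ± 138 CPM, with a log2 difference of 0.46 ± 0.06 SE (adjusted p = 5.40e-06), short of the size threshold.

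Early response genes differed in both directions. Fos, a subunit of the AP-1 transcription factor, was at 49.5, 46.8 and 44.03 CPM in IL6Myc-3 and 187, 184 and 176 CPM in IL6Myc-5 (log2 difference 1.96 ± 0.08 SE, adjusted p = 4.41e-12). The other 3 lines lay around IL6Myc-3, at 42.3 to 51.8 CPM, so IL6Myc-5 stood alone. Fosb followed at 7.95 ± 0.682 and 31.4 ± 3.94 CPM. Egr1, a zinc finger factor of the same early wave, was lower in IL6Myc-5, at 2.32 ± 0.305 and 0.43 ± 0.0635 CPM, as was Ier3 at 7.48 ± 0.478 and 3.68 ± 0.889 CPM (without IL6Myc-5 replicate 2 its log2 difference was -0.83, and without IL6Myc-3 replicate 1 it was -0.95). With these 4, the list of 11 tested members had 2 called in each direction and a median log2 difference of 0.75. Over all genes tested, 5.13% were called higher in IL6Myc-5 and 4.73% higher in IL6Myc-3. Junb, at 48.6 ± 2.13 and 96.6 ± 3.94 CPM, and Jund, at 218 ± 1.82 and 383 ± 19.2 CPM, were under the size threshold, which Junb passed without IL6Myc-3 replicate 2 (1.03) or IL6Myc-5 replicate 2 (1.01) or 3 (1.02). Without IL6Myc-5 replicate 2 the list had 4 called higher in IL6Myc-5. Egr1 passed the filter on low values through IL6Myc-3 alone and was not tested when any of that line's 3 libraries was left out. In the RAS and MAPK list Etv5, an ETS factor induced by the pathway, was at 30.5 ± 1.90 and 73.6 ± 3.68 CPM, and Etv4 at 5.30 ± 1.23 and 11.4 ± 0.653 CPM. They were the called members of 21 tested (9.86% of all genes were called in either direction). Etv4 lost its call without IL6Myc-3 replicate 3 (0.996).

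Within the BCL2 family, 15 members were tested and 3 were called, all higher in IL6Myc-5 (5.13% of all genes were). They were Mcl1, Bnip3 and Bmf, a protein that promotes death by binding survival members, at 38.5 ± 3.28 and 86.98 ± 7.97 CPM. The survival genes Bcl2 and Bcl2l1 had lower values in IL6Myc-5 without a call, Bcl2 at 17.9 ± 0.528 and 11.8 ± 1.20 CPM and Bcl2l1 at 156 ± 2.27 and 108 ± 4.76 CPM. Tnfrsf10b, the death receptor for TRAIL, was at 3.21 ± 0.527 and 9.16 ± 0.413 CPM and was called. In the integrated stress response, 3 of 25 tested members were called higher in IL6Myc-5 (5.13% of all genes were). They were Chac1, which degrades glutathione, at 31.6 ± 0.604 and 82.7 ± 4.45 CPM, Ddit3, the factor CHOP, at 8.03 ± 0.248 and 17.5 ± 1.13 CPM, and Trib3 at 8.35 ± 0.603 and 17.2 ± 0.982 CPM. Trib3 was at the threshold (1.04) and fell under it with total counts (0.94) and without IL6Myc-3 replicate 1 (0.998) or IL6Myc-5 replicate 3 (0.996). Ddit4, an inhibitor of mTORC1 induced by stress, was at 89.2 ± 4.79 and 232 ± 15.8 CPM (log2 difference 1.38 ± 0.05 SE, adjusted p = 1.01e-12). Of the 30 tested members of the unfolded protein response list 0 were called, and 1 was without IL6Myc-3 replicate 1 or IL6Myc-5 replicate 1.

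**Figure D3:**
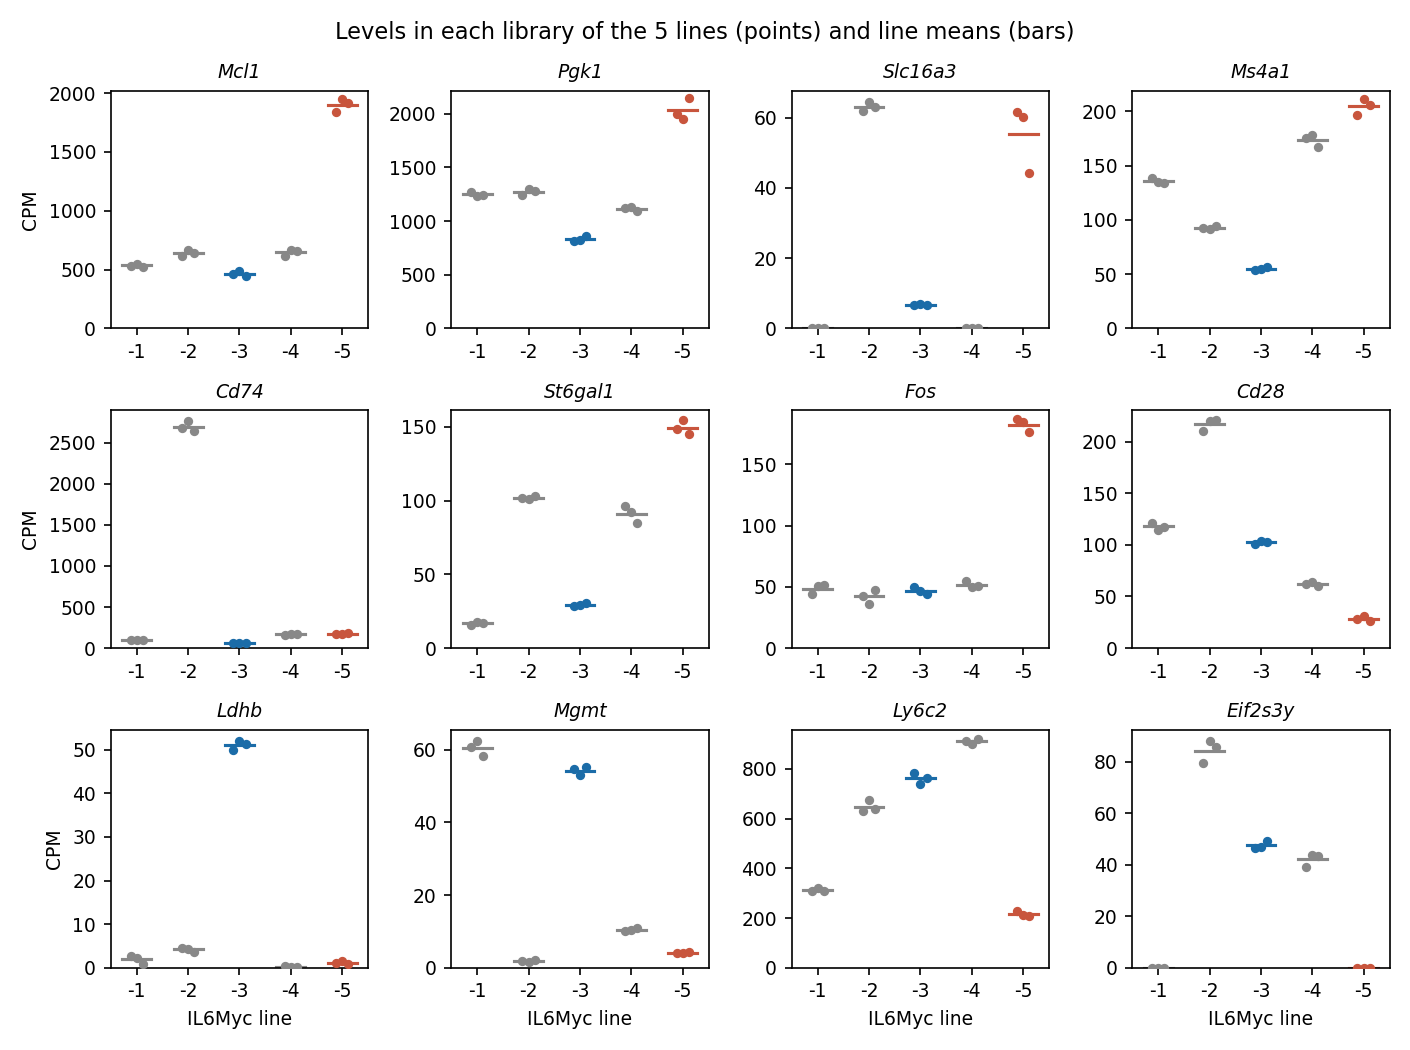
CPM (y axis, from 0) of 12 genes in the 3 libraries of each of the 5 lines (x axis). Points are libraries and bars are line means, with IL6Myc-3 in blue, IL6Myc-5 in red and the other lines in grey. Mcl1 and Fos are high in IL6Myc-5 alone, Ldhb is high in IL6Myc-3 alone, and Slc16a3, Cd74, Mgmt and Eif2s3y differ among the other lines as well.

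Of 20 tested plasma cell identity genes 1 was called, where 9.86% of all genes were, and the median log2 difference was 0.09. At any size, 10 were higher in IL6Myc-5 and 7 higher in IL6Myc-3 at an adjusted p under 0.05 (28.5% and 26.8% of all genes tested). The called gene was Cd28, a costimulatory receptor that plasma cells also use for survival. It was at 101, 103 and 103 CPM in IL6Myc-3 and 27.7, 30.9 and 26.6 CPM in IL6Myc-5 (log2 difference -1.86 ± 0.05 SE, adjusted p = 3.65e-14), and IL6Myc-5 was the lowest of the 5 lines. Irf4 was at 963 ± 15.7 and 1199 ± 35.7 CPM and Sdc1, which encodes CD138, at 406 ± 10.6 and 313 ± 3.15 CPM. Tnfrsf17, the gene of BCMA, was at 10.2 ± 0.815 and 20.1 ± 1.51 CPM and its log2 difference of 0.98 was short of the threshold, which it passed without IL6Myc-3 replicate 2 (1.02) or IL6Myc-5 replicate 1 (1.01) or 2 (1.01).

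Genes of earlier B cell stages were higher in IL6Myc-5 where they were called, 2 of 12 tested (5.13% of all genes were). Ms4a1, which encodes CD20, was at 53.7, 54.5 and 56.3 CPM in IL6Myc-3 and 197, 211 and 205 CPM in IL6Myc-5. All libraries of IL6Myc-3 lay below, and all of IL6Myc-5 above, the 9 libraries of the other lines (log2 difference 1.90 ± 0.04 SE, adjusted p = 1.81e-15). Bcl6, the germinal centre repressor, was at 4.06 ± 0.193 and 10.4 ± 0.581 CPM. Cd74, the invariant chain of MHC class II, was at 66.05 ± 2.18 and 175 ± 6.89 CPM (log2 difference 1.41 ± 0.04 SE, adjusted p = 6.57e-14), both far below the 2696 CPM of IL6Myc-2. Of the 4 tested class II genes, H2-Eb1 was called too, with 0.161 ± 0.0384 and 0.419 ± 0.169 CPM, and lost its call without IL6Myc-5 replicate 3 (0.992). H2-Ab1 had 0 counts in both lines. Of the MHC class I and immunoproteasome genes, 0 of 20 were called, yet all 20 differences were above 0. Their median log2 difference was 0.49, and 16 of 20 were higher in IL6Myc-5 at an adjusted p under 0.05 at any size (28.5% of all genes tested were). B2m, the light chain of class I, was at 587 ± 13.7 and 827 ± 33.4 CPM and H2-K1 at 324 ± 8.34 and 463 ± 12.7 CPM.

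Of 8 tested immunoglobulin constant genes, 0 were called higher in IL6Myc-5 and 3 higher in IL6Myc-3 (5.13% and 4.73% of all genes were). Igha, the IgA constant gene, was at 25567 ± 654 CPM in IL6Myc-3 and 30075 ± 1166 CPM in IL6Myc-5, and Igkc at 21083 ± 599 and 22849 ± 394 CPM. Neither was called. Iglc2, a lambda constant gene, was at 141, 145 and 147 CPM in IL6Myc-3 and 26.96, 24.8 and 27.1 CPM in IL6Myc-5 (log2 difference -2.45 ± 0.04 SE, adjusted p = 1.00e-16), the lowest of the 5 lines. Iglc1 was at 132 ± 3.24 and 38.3 ± 3.73 CPM and Iglv1, a lambda V segment, at 134 ± 1.46 and 59.3 ± 1.18 CPM. Iglc3, the most abundant lambda constant gene of the pair, was at 425 ± 11.2 and 349 ± 20.3 CPM and was not called (log2 difference -0.29 ± 0.05 SE). Iglv1 took 94.3% to 95.1% of the lambda V counts per library of IL6Myc-3 and 87.0% to 89.5% in IL6Myc-5, and Iglv3 most of the rest. The third called constant gene, Ighd, had 17 and 5 counts, and lost its call when any library but IL6Myc-5 replicate 1 was left out (log2 differences -1.52 to -1.15). Lambda genes are near-identical copies, so reads can be split among them.

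Of 16 tested glycosyltransferase and Golgi genes, 1 was called higher in IL6Myc-5 and 2 higher in IL6Myc-3 (5.13% and 4.73% of all genes were), with a median log2 difference of 0.03. These 3 act on sialic acid. St6gal1, which adds the alpha-2,6 sialic acid found on antibody glycans, was at 28.8, 29.1 and 30.4 CPM in IL6Myc-3 and 148, 154 and 145 CPM in IL6Myc-5 (log2 difference 2.34 ± 0.05 SE, adjusted p = 3.51e-15). St8sia4, a polysialyltransferase, was lower, at 86.6 ± 1.51 and 40.5 ± 1.72 CPM, as was St3gal5, the GM3 synthase, at 3.46 ± 0.43 and 0.718 ± 0.217 CPM. Of the 15 tested genes of the Notch, Wnt and Hedgehog pathways, 6 were called higher in IL6Myc-5 and 2 higher in IL6Myc-3, mostly at low level. Gli2 is among the 6 and passed the filter on low values through IL6Myc-5 alone, where it was high. Notch3, a receptor, was at 0.858 ± 0.106 and 10.4 ± 0.729 CPM, its ligand gene Jag2 at 0.625 ± 0.239 and 2.06 ± 0.475 CPM, and Wnt10a at 4.04 ± 0.277 and 19.5 ± 1.20 CPM. Lrp5, a Wnt co-receptor, was at 8.93 ± 0.659 and 29.9 ± 0.642 CPM (log2 difference 1.74 ± 0.12 SE, adjusted p = 5.39e-09). Gli2, a Hedgehog transcription factor, had 0 counts in IL6Myc-3 and 4.05 ± 0.435 CPM in IL6Myc-5, at least 111-fold higher when IL6Myc-3 is set to a floor of 3 counts in all. Fzd7 reached 1.20 ± 0.268 and 2.43 ± 0.284 CPM and lost its call without IL6Myc-3 replicate 2 (0.85) or IL6Myc-5 replicate 1 (0.90). In the other direction, Fzd6, a Wnt receptor, had 0 counts in IL6Myc-5 against 3.43 ± 0.617 CPM in IL6Myc-3, at least 80.4-fold, and Gli1 was at 1.21 ± 0.112 and 0.572 ± 0.153 CPM (without IL6Myc-5 replicate 1 its log2 difference was -0.87).

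Of the interferon response list, 6 of 22 tested members were called higher in IL6Myc-5 and 0 higher in IL6Myc-3, with a median log2 difference of 0.49. Among all genes tested the shares were 5.13% and 4.73%. At any size, 15 members were higher in IL6Myc-5 and 6 higher in IL6Myc-3 at an adjusted p under 0.05 (28.5% and 26.8% of all genes tested). The tested members summed to 881 CPM in IL6Myc-3 and 913 CPM in IL6Myc-5. Ifi204, a DNA sensor of the Ifi200 cluster, was at 16.99, 17.9 and 20.5 CPM in IL6Myc-3 and 47.3, 52.1 and 50.3 CPM in IL6Myc-5 (log2 difference 1.43 ± 0.12 SE, adjusted p = 4.63e-08). Its neighbours Ifi207 and Ifi211 were also called, at 3.34 ± 0.504 and 9.76 ± 0.743 CPM and at 3.45 ± 0.173 and 9.12 ± 2.30 CPM. These are close copies whose reads can be shared. Ifi44 was at 0.461 ± 0.168 and 8.70 ± 1.43 CPM, Mx1, an antiviral GTPase, at 1.17 ± 0.652 and 4.95 ± 0.474 CPM, and the guanylate-binding genes Gbp2 and Gbp7 at 2.67 ± 0.0917 and 9.56 ± 0.582 CPM and at 12.4 ± 0.49 and 26.2 ± 4.57 CPM (Gbp7 was not called without IL6Myc-5 replicate 2, at 0.95). Of the classical early targets, Isg15 was at 0.121 and 0.136 CPM and Ifit1 at 0.365 and 0.194 CPM, both too low to be tested. Ifi27l2a, at 1.85 ± 0.294 and 0.916 ± 0.201 CPM, was just short of a call in the other direction, and 1 member was called so without IL6Myc-3 replicate 2 or IL6Myc-5 replicate 1 or 3.

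Of 29 tested genes of sterol and fatty acid metabolism, 2 were called higher in IL6Myc-5, against 5.13% of all genes tested. They were the transporters Abca1 and Abcg1, which export cholesterol, Abca1 at 32.6 ± 1.40 and 95.3 ± 7.68 CPM and Abcg1 at 17.3 ± 3.90 and 52.1 ± 7.89 CPM. The median of the list was -0.28. Of 27 tested DNA repair genes, 2 were called higher in IL6Myc-5 and 1 higher in IL6Myc-3, near the shares over all genes. Neil1, a glycosylase for oxidised bases, was at 14.5, 15.6 and 15.1 CPM in IL6Myc-3 and 67.9, 60.9 and 68.7 CPM in IL6Myc-5. Mgmt, which removes alkyl groups from guanine, was at 54.6, 53.04 and 55.2 CPM in IL6Myc-3 and 4.06, 4.03 and 4.43 CPM in IL6Myc-5, 13.00-fold higher in IL6Myc-3 (log2 difference -3.69 ± 0.07 SE, adjusted p = 8.05e-16). Mgmt split the panel, with IL6Myc-1 at 60.5 CPM and IL6Myc-2 and IL6Myc-4 at 1.92 and 10.5 CPM. The third called repair gene was Pms2, at 0.676 ± 0.062 and 1.85 ± 0.418 CPM. Among glutathione and redox genes, 4 of 26 were called, all higher in IL6Myc-3 (4.73% of all genes tested were). The microsomal transferase Mgst1 led at 2.77 ± 0.538 and 0.512 ± 0.106 CPM, followed by Gstm1, Gsta4 and Cbs, none above 1.90 CPM in either line. Mgst1 and Gsta4 passed the filter on low values through IL6Myc-3 alone, where they were highest, so their calls could only go that way. Cbs was not called without IL6Myc-3 replicate 1 (-1.25) or 3 (-1.20) or IL6Myc-5 replicate 2 (-0.94) or 3 (-1.04), and the list had 2, 2 and 1 called members without IL6Myc-3 replicate 1, 2 and 3.

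Further signalling and surface lists held a few called members each. Beside them, 5.13% of all genes tested were called higher in IL6Myc-5 and 4.73% higher in IL6Myc-3. Of 18 tested genes of TGF-beta and BMP signalling, 0 were called higher in IL6Myc-5 and 3 higher in IL6Myc-3. Smad6, an inhibitory SMAD, was at 11.2, 11.3 and 11.9 CPM in IL6Myc-3 and 2.98, 2.87 and 2.43 CPM in IL6Myc-5 (log2 difference -2.06 ± 0.14 SE, adjusted p = 2.11e-09), and the other lines lay near IL6Myc-5 at 2.28 to 3.32 CPM. Tgfb2, a ligand, was at 19.2, 18.8 and 19.1 CPM in IL6Myc-3 and 9.35, 8.97 and 7.88 CPM in IL6Myc-5. The third, the co-receptor gene Eng, stayed under 1 CPM in both lines and lost its call without IL6Myc-3 replicate 1 (-1.39) or IL6Myc-5 replicate 1 (-2.02), 2 (-2.20) or 3 (-2.52). Of 14 tested chemokines, cytokines and receptors, 3 were called in each direction (1 higher in IL6Myc-3 without its replicate 2). Ccl5 is among those higher in IL6Myc-3 and passed the filter on low values through that line alone. Il2rg, the common gamma chain of cytokine receptors, was at 51.9, 50.6 and 55.5 CPM in IL6Myc-3 and 24.3, 21.1 and 23.7 CPM in IL6Myc-5 (log2 difference -1.19 ± 0.07 SE, adjusted p = 4.00e-10), the lowest of the 5 lines. Jak3, the kinase that pairs with that chain, was higher in IL6Myc-5, at 54.6 ± 0.519 and 134 ± 9.85 CPM.

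Of 22 tested adhesion genes, 3 were called higher in IL6Myc-5 and 2 higher in IL6Myc-3 (5.13% and 4.73% of all genes were). Cd63 is among those higher in IL6Myc-5 and passed the filter on low values through that line alone. Itgb3, an integrin beta chain, was at 1.58 ± 0.487 and 11.5 ± 0.525 CPM, with IL6Myc-2 far above both at 80.2 CPM. Itga6, a laminin receptor chain, was at 1.73 ± 0.431 and 7.10 ± 0.982 CPM, IL6Myc-3 being the lowest of the 5 lines. Of 23 tested genes of PI3K and mTOR signalling, 1 was called higher in IL6Myc-5 (Ddit4) and 2 higher in IL6Myc-3. The shares over all genes, 5.13% and 4.73%, also stand beside this list and the cell cycle list below. Pik3cb, a catalytic subunit of PI3K, was at 6.36, 8.19 and 7.44 CPM in IL6Myc-3 and 0.477, 0.265 and 0.606 CPM in IL6Myc-5 (log2 difference -3.96 ± 0.21 SE, adjusted p = 1.68e-10). Sesn3, a sestrin that restrains mTORC1, was at 34.1 ± 0.56 and 13.7 ± 1.15 CPM. In the cell cycle list of 23 tested, Ccne1, which encodes cyclin E1, was higher in IL6Myc-3 at 135 ± 3.11 and 65.7 ± 2.27 CPM, the highest and the lowest of the 5 lines. Cdk6, a kinase of the G1 phase, was the member called higher in IL6Myc-5, at 0.209 ± 0.182 and 1.61 ± 0.292 CPM. There were 2 such members without IL6Myc-3 replicate 2 or IL6Myc-5 replicate 3, and 2 higher in IL6Myc-3 under total counts or without its replicate 3.

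Of 20 tested driver genes of myeloma, Fat1, an atypical cadherin, was called beside Mcl1 and Egr1, at 6.41 ± 1.15 and 32.3 ± 9.38 CPM. Over all genes tested, 9.86% were called, and this share stands beside each list of this paragraph. Of 30 tested chromatin genes 1 was called, Dnmt3b, a de novo DNA methyltransferase, at 4.95 ± 0.41 and 1.93 ± 0.374 CPM, and a further gene was called higher in IL6Myc-5 without IL6Myc-3 replicate 1. Of 23 tested genes of the NF-kB pathway 1 was called, Traf1, a target and adaptor of the pathway, at 2.83 ± 0.338 and 0.836 ± 0.248 CPM, and 2 were called higher in IL6Myc-3 under total counts or without IL6Myc-3 replicate 3 or IL6Myc-5 replicate 1 or 2.

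**Figure D4:**
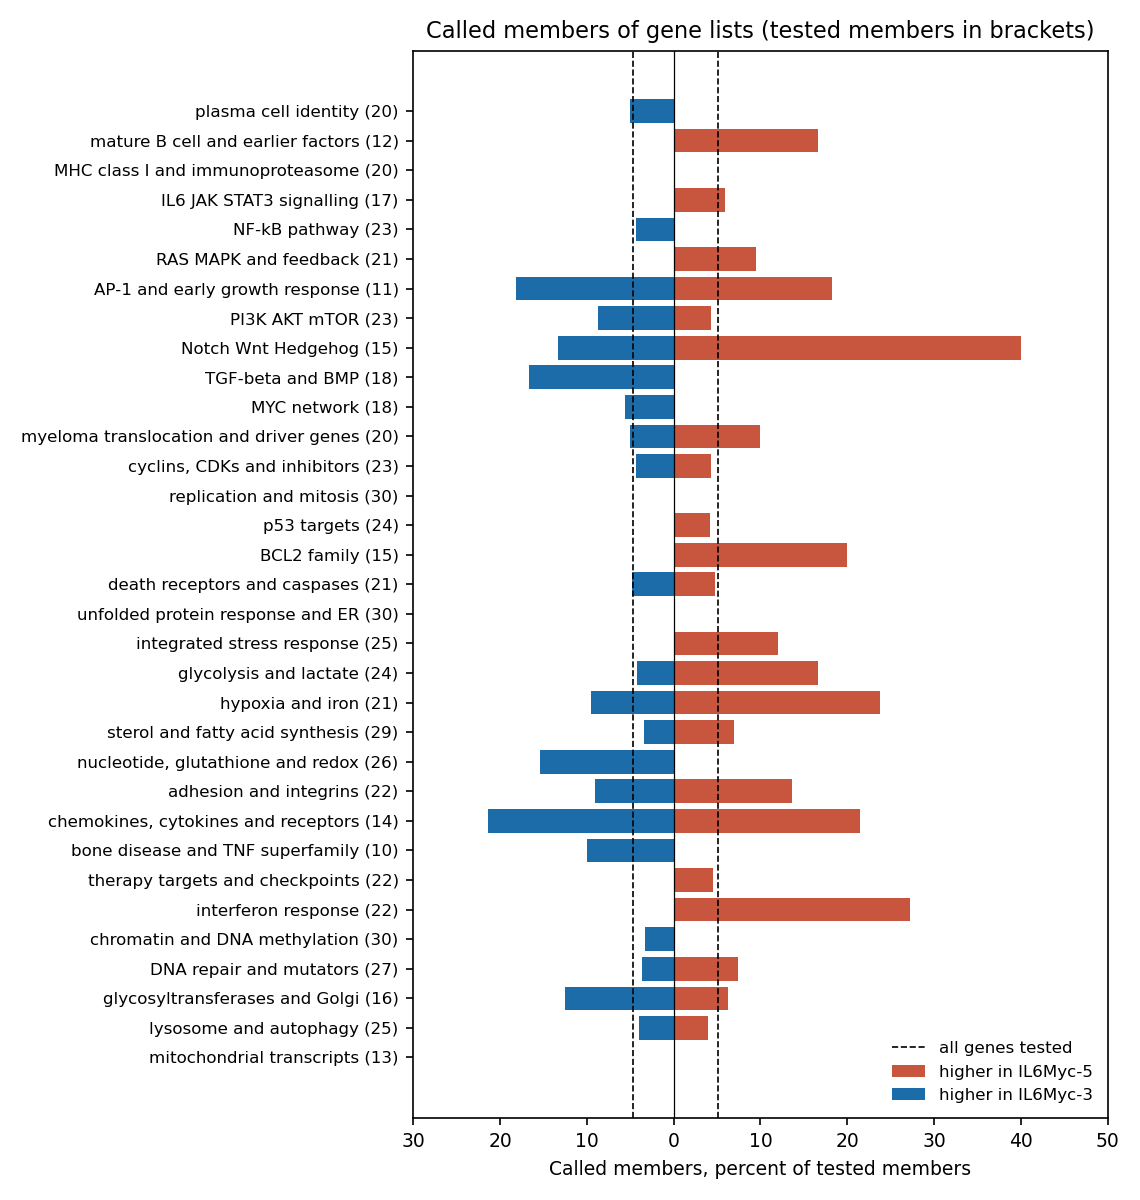
Share of tested members (x axis, percent) called higher in IL6Myc-5 (red, to the right) or higher in IL6Myc-3 (blue, to the left) for each gene list with at least 10 tested members, whose number stands in brackets. Dashed lines mark the same shares over all genes tested, 5.13% and 4.73%. The Notch, Wnt and Hedgehog list (6 of 15, Gli2 tested through IL6Myc-5 alone) and the interferon list (6 of 22) reach farthest right, and the replication, unfolded protein response, class I and mitochondrial lists have 0 called.

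Among genes at 10 CPM or more, the largest difference in favour of IL6Myc-5 was that of Ptprr, a tyrosine phosphatase that acts on MAP kinases. It was at 0.407, 0.667 and 0.52 CPM in IL6Myc-3 and 25.9, 24.9 and 24.9 CPM in IL6Myc-5 (log2 difference 5.55 ± 0.14 SE, adjusted p = 9.66e-15). Rhox5, an X-linked homeobox gene, was at 5.01 ± 0.449 and 102 ± 3.98 CPM, with IL6Myc-2 also high at 88.1 CPM. Fras1, an extracellular matrix protein, was at 0.83 ± 0.06 and 17.4 ± 1.67 CPM, and Muc1, a membrane mucin, at 0.851 ± 0.21 and 13.2 ± 0.816 CPM. Arfgef3, Arhgap32, Clec2f, Clic5, Ehd2 and Ppl completed the 12 highest beside Notch3 and Ciart, with log2 differences of 3.16 to 3.61.

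Several genes expressed in IL6Myc-3 had 0 counts in IL6Myc-5. Eif2s3y and Ddx3y, genes of the Y chromosome, were at 46.5, 47.1 and 49.2 and at 33.3, 33.2 and 31.98 CPM in IL6Myc-3, at least 1116-fold and 769.8-fold above the floor of 3 counts over IL6Myc-5. IL6Myc-1 had 0 counts of both too, and IL6Myc-2 and IL6Myc-4 expressed them. The Y-linked Kdm5d and Uty, which have close X-linked relatives, were at 1.79 and 1.72 CPM in IL6Myc-5 against 16.03 and 9.83 CPM. Xist, the X inactivation transcript, was at 1.42 ± 0.99 and 0.971 ± 0.337 CPM. Nid2, a basement membrane protein, Zcchc14, Sgcb and Skap1 also had 0 counts in IL6Myc-5, against 15.9 ± 0.592, 10.8 ± 1.03, 9.12 ± 0.707 and 6.91 ± 1.05 CPM. Nid2, Zcchc14 and Sgcb were at 0 counts in IL6Myc-1 as well. Lrpap1 differed in kind, being expressed in all the other lines. This chaperone of lipoprotein receptors was at 18.98 ± 0.757 CPM in IL6Myc-3 and 17.1 to 27.8 CPM in the 3 other lines, and had 3 counts in IL6Myc-5, a ratio of 447 (95% interval 153 to 2168, counting error only). Jak1, a kinase that most cells use, was listed at 0.247 and 0.0512 CPM in the pair and at no more than 0.517 CPM in any line, so a value near 0 in this table need not mean that the transcript was absent. In the other direction the predicted gene Gm10288 had 0 counts in IL6Myc-3, and its 1508 counts in IL6Myc-5 came from replicate 3 alone. It lost its call without any library of IL6Myc-3.

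Further genes were called higher in IL6Myc-3, some of them also high in other lines. Scn4a, a sodium channel, was at 48.6, 37.9 and 35.00 CPM in IL6Myc-3 and 0.358, 0.371 and 0.531 CPM in IL6Myc-5 (log2 difference -6.55 ± 0.39 SE, adjusted p = 6.35e-10), and no other line exceeded 1.18 CPM. Nup210l was at 33.2 ± 2.47 and 1.36 ± 0.38 CPM and Efhc2 at 17.9 ± 0.581 CPM against 3 counts. Serpinh1, a collagen chaperone, was at 17.4 ± 1.07 and 0.615 ± 0.124 CPM and Itga9, an integrin chain, at 23.2 ± 5.24 and 0.368 ± 0.25 CPM, with IL6Myc-1 between them at 9.01 CPM. Ank, a pyrophosphate transporter, was at 16.5 ± 1.06 CPM against 2 counts, but was higher still in IL6Myc-2 at 50.2 CPM. The surface genes Ly6c1 and Ly6c2 combined a high level with a clear difference. Ly6c2 was at 784, 741 and 762 CPM in IL6Myc-3 and 229, 214 and 210.4 CPM in IL6Myc-5 (log2 difference -1.81 ± 0.04 SE, adjusted p = 3.40e-15), the lowest of the 5 lines, while IL6Myc-4 was above both at 911 CPM. Their neighbours Ly6a and Ly6i were called in the same direction, at 18.5 ± 0.994 and 4.36 ± 0.325 CPM and at 2.62 ± 0.102 and 0.615 ± 0.229 CPM. Ly6c1 and Ly6c2 are near-identical, so each value is uncertain. Ly6d, a further family member named here after its values were seen, was at 1523 ± 42.4 and 604 ± 23.3 CPM.

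Besides the stretch around Mcl1, runs of called neighbours were short. In all, 16 runs of at least 3 tested neighbours called in the same direction were found, 8 in each direction, and 14 of them held 3 or 4 genes. Some were families of close copies, such as the Ifi200, Ly6, Acot and lambda genes. Others were not: Tubg2, Plekhh3 and Ccr10, a chemokine receptor of plasma cells, were higher in IL6Myc-5, with Ccr10 at 2.62 ± 0.207 and 6.47 ± 0.668 CPM. Jak3 lay in a run with Unc13a and Insl3, although Unc13a lost its call without IL6Myc-3 replicate 1 (0.72) or IL6Myc-5 replicate 2 (0.86). Higher in IL6Myc-3 were Gpat3, Wdfy3, Mapk10 and Ptpn13, the last a tyrosine phosphatase at 12.8 ± 1.20 and 5.17 ± 0.532 CPM.

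Whole chromosomes shifted far less. Taken over its tested genes, the median log2 difference was 0.33 for chromosome 14 (374 genes, 82.6% above 0) and 0.31 for chromosome 8 (607 genes, 83.7% above 0). It was -0.21 for chromosome 7 (907 genes, 29.9% above 0), and -0.10 to 0.15 for the other 17 chromosomes. The shift on chromosome 8 lay with IL6Myc-5, at 0.355 ± 0.0124 (SD, n = 3) above the mean of the 3 other lines, against 0.036 ± 0.0071 for IL6Myc-3. On chromosome 14 the lines parted, IL6Myc-5 at 0.115 ± 0.0111 and IL6Myc-3 at -0.201 ± 0.0185. Under total-count scaling, which moves the median of all genes by -0.10, these medians were 0.231, 0.214 and -0.310 for chromosomes 14, 8 and 7. Chromosome 3 as a whole had a median of -0.10 despite its raised stretch. These medians are descriptions with no test.

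**Figure D5:**
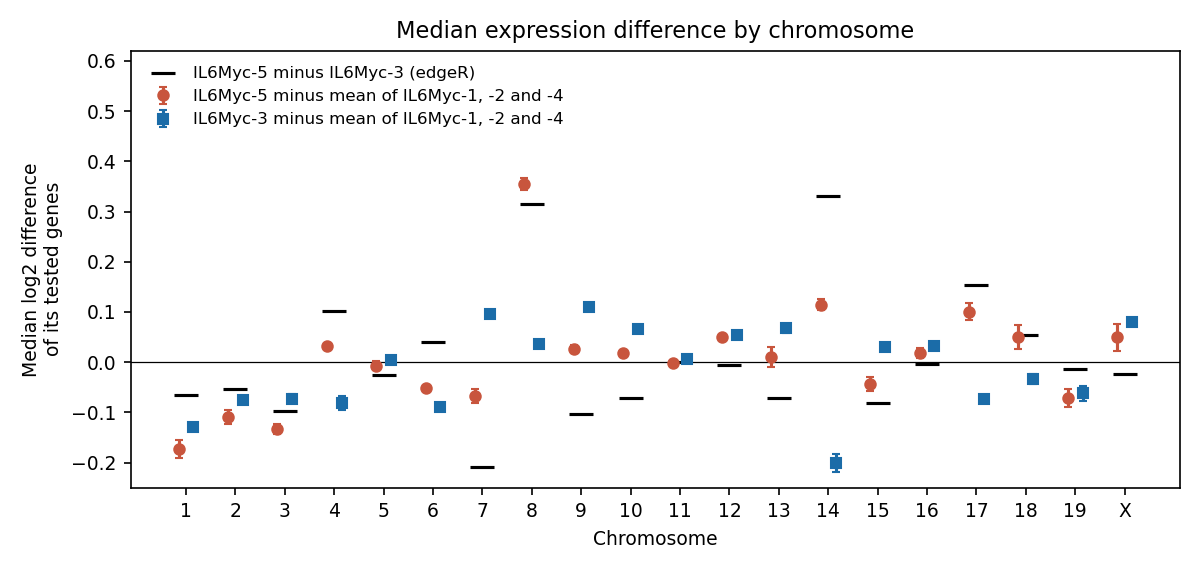
Median over the tested genes of each chromosome (x axis) of the log2 difference IL6Myc-5 minus IL6Myc-3 from edgeR (black dashes), and of log2(CPM + 1) of IL6Myc-5 (red circles) and IL6Myc-3 (blue squares) minus the mean of IL6Myc-1, IL6Myc-2 and IL6Myc-4 (y axis). Points are means and error bars SDs over 3 libraries. Chromosomes 8 and 14 stand highest for the pair and chromosome 7 lowest.

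Genes that the pair shares against the rest of the panel were few. In 16 genes all 6 libraries of the pair lay beyond the 9 others on the same side, with at least 1 log2 unit between the nearest line means on the log2(CPM + 1) scale. Of these, 11 were higher and 5 lower, where the other 9 pairs of lines had 5 to 36 higher and 2 to 38 lower. The higher ones were low in level. Cd6, a scavenger receptor of lymphocytes, was at 2.77 ± 0.427 and 5.61 ± 0.488 CPM against 0 to 0.0318 CPM elsewhere in the panel. Tbx18, a T-box factor, was at 6.51 ± 0.547 and 4.32 ± 0.328 CPM against 0.0204 to 0.0281 CPM, and Rcn1, a calcium-binding protein of the endoplasmic reticulum, at 6.02 ± 0.326 and 7.16 ± 0.614 CPM against 0.0129 to 0.873 CPM. Cd3g, a chain of the T cell receptor complex, was lower in the pair, at 2.02 ± 0.529 and 1.43 ± 0.195 CPM against 10.7 to 21.96 CPM, as was Aff3 at 4.63 ± 0.66 and 5.94 ± 0.142 CPM against 12.9 to 15.4 CPM. These 5 genes were chosen as examples after their values were seen, and the count fell to 1 with a pseudocount of 5.

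Few markers of other cell types passed the filter on low values. Across all genes tested, 5.13% were called higher in IL6Myc-5 and 4.73% higher in IL6Myc-3. Of 6 tested myeloid markers 2 were called higher in IL6Myc-3, Itgam at 3.65 ± 0.378 and 1.01 ± 0.163 CPM and Mpo at 1.37 ± 0.528 and 0.506 ± 0.147 CPM. The myeloid markers summed to 147 to 155 CPM per library in IL6Myc-3 and 203 to 217 CPM in IL6Myc-5, most of it C1qb and Cd68. Of 7 tested T and NK cell markers 3 were called higher in IL6Myc-3, among them Klrk1, the receptor NKG2D, at 10.3 ± 0.786 and 2.31 ± 0.565 CPM, beside Cd3d and Prf1. Their sums were 43.3 to 47.7 and 29.0 to 34.5 CPM. Of 3 tested erythroid and megakaryocyte markers, Itga2b and Gp9 were called higher in IL6Myc-5, at 5.69 and 2.19 CPM there (Itga2b was not called without IL6Myc-3 replicate 2, at 0.97), while the globin genes did not exceed 0.0371 CPM and Pf4 and Ppbp had 0 counts. Of 17 stromal and endothelial markers 2 were tested and 0 called. The part of other cells in any result above was not tested. Replication and mitosis genes were called in 0 of 30, with a median log2 difference of -0.15. At any size, 16 were higher in IL6Myc-3 and 6 higher in IL6Myc-5 at an adjusted p under 0.05 (26.8% and 28.5% of all genes tested). Mki67, the proliferation marker, was at 659.8 ± 18.6 and 633 ± 59.5 CPM.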

How the data were processed

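RNA of 5 mouse myeloma cell lines was extracted with RNeasy kits and sequenced as stranded total RNA, 3 technical replicates per line. Per the submitters' processing notes, Trim Galore 0.4.0, DESeq2 and the GRCm39 build were used. For the aligner, the quantifier and the annotation, the sources used here give no name. The authors deposited 1 table of 32434 entries for 32371 gene names. It is called TPM, but its columns sum to 19068543 to 41165599 (the pair to 19068543 to 28957852), so the deposited values were treated as estimated counts, which need not be whole, and rounded. An extra column holds the mean of the 15 libraries and was not used. Libraries of a line differed by more than sampling noise (chi-square per degree of freedom 6.91 to 18.4 in the pair).

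The 11773 genes that reached 1 CPM in 3 or more of the 15 libraries were tested with edgeR 4.0.16 (R 4.3.3): TMM scaling, factors 0.848 to 1.08, a quasi-likelihood fit of all 15 libraries with line as the factor, and Benjamini-Hochberg adjustment over all genes. CPM values use the TMM library sizes. The median biological coefficient of variation was 0.0639, which between technical replicates covers technical spread only. Calls needed an adjusted p under 0.05 together with a log2 difference of 1 or more. DESeq2 1.42.0, limma 3.58.1, other scalings and filters, and leaving out each library served as alternatives. Replicate numbers do not pair the libraries.

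The pair, its gene lists and its tests were chosen with earlier results of these data known. The genes named are the 12 highest and 12 lowest differences with at least 10 CPM and no overlap, up to 4 called members per list and direction, fixed myeloma genes, markers of other cell types at 5 CPM or more, runs of called neighbours, and genes at 0 counts in a line. Some genes these rules chose are not reported here. Further list members and the shared genes were named after their values were seen. Of the entries, 32226 (99.4%) matched the RefSeq gene table of GRCm38.p6, which gave chromosomes, gene order and promoters. The script was tested on simulated counts. Intervals and floors cover counting error only.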

Additional observations from a re-analysis of the deposited data

How the results depend on the processing

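No called gene that the naming rules chose reversed its direction under the alternatives run. Of 188 such genes, 90 lost their call under at least 1 alternative: 89 with limma on log2(CPM + 5), 43 with limma on log2(CPM + 1), 9 with total-count scaling and 8 to 13 when a library was left out. The total of 1161 called genes became 658 with a 5 CPM filter, 668 with limma on log2(CPM + 1) and 276 with limma on log2(CPM + 5). Higher in IL6Myc-5 were 366, 369 and 151 genes, in place of 604, and higher in IL6Myc-3 were 292, 299 and 125, in place of 557. Genes that pass the filter through 1 line alone, such as Egr1 and Mgst1, leave the test when a library of that line is left out. With no filter, 871 genes were higher in IL6Myc-3. The filter tests fewer or more genes, and a larger pseudocount shrinks the differences of low genes by construction. Called list members numbered 98, and 48 with limma on log2(CPM + 5). Total-count scaling, which moves the median of all genes to -0.10, gave 514 genes higher in IL6Myc-5 and 646 genes higher in IL6Myc-3. The median log2 difference of chromosome 14 was 0.231 under total counts and 0.286 with limma on log2(CPM + 1), the median log2 difference of chromosome 8 was 0.214, 0.295 and, without IL6Myc-5 replicate 2, 0.331, and the median log2 difference of chromosome 7 was -0.310 and -0.179. The pair's distance was 42.7 with a pseudocount of 5 and 55.2 with a 5 CPM filter, still the smallest of the 10 pairs, and the shared genes numbered 1 and 9. These distance and shared-gene alternatives were chosen after seeing the data.

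Leaving out each library gave 1105 to 1150 called genes, 559 to 595 higher in IL6Myc-5, 517 to 568 higher in IL6Myc-3, 91 to 97 list members, 33 to 36 genes of the chromosome 3 stretch, and medians of 0.309 to 0.346, 0.318 to 0.331 and -0.210 to -0.201 for chromosomes 14, 8 and 7. Same-numbered libraries of the pair correlated at -0.040, 0.075 and 0.039 in their deviations, so the numbers do not pair them. With the replicate block 599 genes were higher in IL6Myc-5 and 556 higher in IL6Myc-3. Depth limits low genes most: 3 counts over a line correspond to 0.0364 CPM in IL6Myc-3 and 0.0426 CPM in IL6Myc-5.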
